A study of Homo sapiens with 6 samples.

Results

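Tubulin isotypes are the near-identical proteins, each from its own gene, that pair as α and β subunits and polymerise into microtubules. The 10 genes described here, 4 for α-tubulin (TUBA1A, TUBA1B, TUBA1C and TUBA4A) and 6 for β-tubulin (TUBB, TUBB2A, TUBB2B, TUBB3, TUBB4B and TUBB6), were taken by gene symbol from a count table of 30230 genes. All 10 had a row and all 10 were among the 17076 genes that passed the filter on low counts. Polyadenylated RNA was sequenced of A549, an established line from a human lung adenocarcinoma, and there were 3 control libraries (NC) and 3 with FSCN1 silenced (siFSCN1). FSCN1 encodes fascin, which bundles actin filaments. Per the study's text, the silenced cells received a single siRNA against FSCN1 and NC a scrambled siRNA, and it also speaks of a plasmid as the source of both. The sample labels give NC a control plasmid. The libraries were called biological replicates, with no statement of separate cultures. The p-values weigh the group difference against the spread between these libraries, which may not include that between cultures.

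Cells hold free tubulin in balance with microtubules. New α and β chains pass from prefoldin to CCT, a ring-shaped chaperonin that also folds actin, and then to the tubulin cofactors, which join them into dimers. When free dimers are in excess, TTC5 reads the first residues of a tubulin chain as it leaves the ribosome and brings about decay of the tubulin mRNA through SCAPER and the CCR4-NOT deadenylase, a loop known as tubulin autoregulation.

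Library totals ran from 27967301 to 36560919 counts. FSCN1 had 5788 to 7265 counts in NC and 390 to 628 in siFSCN1, a log2 fold change of -3.89 (SE 0.094, adjusted p = 8.1e-16 by edgeR's quasi-likelihood test). The labelled epithelial line had high keratins, with KRT18 at 1815 FPKM in NC. Its 5 epithelial markers moved both ways, as KRT18, KRT8 and KRT7 fell by 0.99, 0.88 and 1.19 on the log2 scale while CDH1 and EPCAM were higher at 1.35 and 0.29. Of alveolar markers, NKX2-1 stood at 0.010 FPKM in NC, SFTPC at 0.090 and ABCA3 at 2.93, where ABCA3 fell by 0.35. PTPRC, CD3E, PECAM1, CDH5, VWF, COL1A2 and DCN, of blood, vessels and fibroblasts, were each at or under 0.010 FPKM in both groups and HBB at 0.033 in NC, while CD68 was at 0.507 FPKM in NC and fell by 1.24, and COL1A1 and LUM, at 0.283 and 0.223, did not pass the test. Of 4 neuronal markers with a row, 2 were higher in siFSCN1, SNAP25 with a log2 fold change of 1.31 and SYT1 with 0.82, while ELAVL3 and ELAVL4 stayed at or under 0.010 FPKM. The part of these markers in the tubulin values was not tested.

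The first 4 codons of all 10 genes encode the residues that autoregulation reads, in an α or a β form. The coding starts below are the first 30 bases of the MANE Select transcript in GENCODE v44, 5′ to 3′, with these 12 bases in capitals. They are shown because they encode the residues that TTC5 reads. The first 30 bases of TUBA1A, TUBA1B and TUBA1C were the same. Any part of the coding start in the changes below was not tested.
TUBA1B: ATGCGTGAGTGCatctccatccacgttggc
TUBA4A: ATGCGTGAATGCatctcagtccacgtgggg
TUBB: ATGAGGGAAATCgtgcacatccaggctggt
TUBB2A: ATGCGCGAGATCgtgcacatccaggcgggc
TUBB4B: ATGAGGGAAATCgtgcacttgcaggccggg
The TUBA1B start was also that of TUBA1A and TUBA1C, and TUBA4A differed from it in the capitals by G9A, counted from 1 at the start codon. In the capitals TUBB4B was the same as TUBB. TUBB3 and TUBB6 differed from TUBB by A9G, TUBB2A by A4C, G6C and A9G, and TUBB2B by A4C, G6T and A9G. Methionine-arginine-glutamate-cysteine, the α form, opened 9 of 19028 MANE coding sequences (0.0473%), and methionine-arginine-glutamate-isoleucine, the β form, opened 10 (0.0526%). All of these were tubulin genes.

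The close likeness of the genes bears on the counts. Over the coding sequence, TUBA1A and TUBA1B were 97.2% identical, TUBA1B and TUBA1C 96.8%, and TUBB2A and TUBB2B 98.2%, while TUBA4A was 84.4 to 85.7% identical to the other α genes. Of the 150-base windows of each MANE transcript, the length of a read, 19.1% of those of TUBA1B, 8.01% of those of TUBA1A and 7.22% of those of TUBA1C occurred unchanged in a transcript of another gene. This share was 48.7% for TUBB2A, 41.6% for TUBB2B, 92.3% for TUBB3, 2.66% for TUBB and 0 for TUBA4A, TUBB4B and TUBB6. The authors counted uniquely mapped reads, and a read from such a window has more than one exact match among transcripts. For TUBB3 the matches include a read-through row that overlaps its exons on the same strand (below). A read there can have a single place in the genome and still belong to either row. Reads were paired, and the windows take no account of the mate. The 11 rows of TUBA and TUBB pseudogenes held 38 to 99 counts per library in all.

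After FSCN1 silencing, 8 of the 10 isotypes were lower at an adjusted p under 0.05 and none was higher, and the other two, TUBA1A and TUBB3, did not pass the test. Over all tested genes, 33.2% were lower and 35.1% higher by the same rule. The median log2 fold change was -0.48 over the 10 isotypes and 0.03 over all tested genes. In 8 isotypes the CPM (counts scaled to library size after TMM, which corrects for composition) of every siFSCN1 library was below that of every NC library, and in none was it above, against 34.4% and 36.8% of tested genes. After TMM scaling only TUBA4A fell at least 2-fold, against 4.85% of tested genes, and with library totals in place of TMM no member did. The members took 0.582 to 0.603% of all counts in NC and 0.416 to 0.432% in siFSCN1. In bulk RNA, fewer cells that make a transcript and less transcript per cell cannot be told apart.

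**Figure D1:**
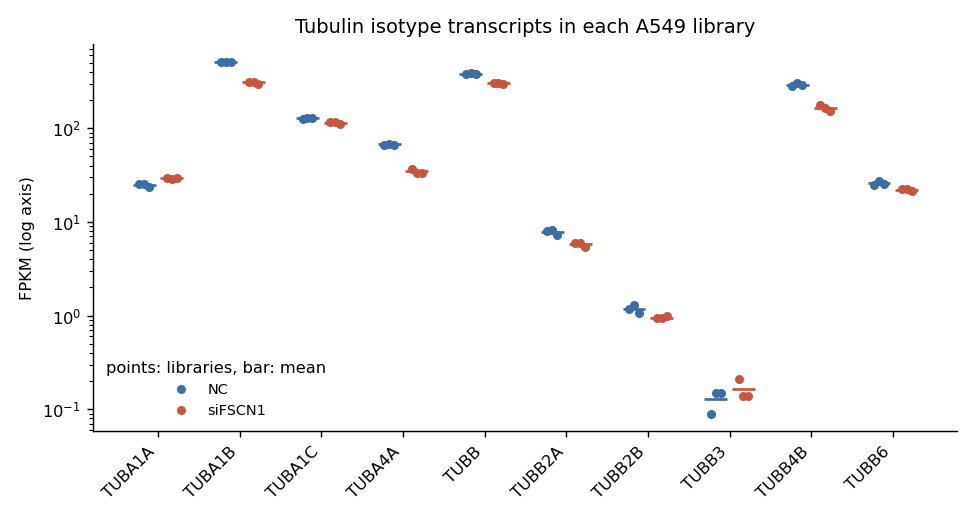
FPKM (log axis) of the 10 tubulin isotypes in each library, with points for the 3 NC and 3 siFSCN1 libraries and bars for group means. TUBA1B, TUBB and TUBB4B stood highest in both groups, and the libraries of a group lay close together except for TUBB3, which had 25 to 60 counts.

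TUBA1B, one of the main α-tubulins of dividing cells, was the most abundant isotype. It had 515, 513 and 510 FPKM in NC replicates 1, 2 and 3, and 315, 316 and 300 FPKM in the siFSCN1 libraries. The groups did not overlap. Its CPM fell from 2306 ± 32.3 (SD, n = 3) to 1243 ± 38.4, a log2 fold change of -0.89 (SE 0.038, adjusted p = 5.3e-13, edgeR).

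TUBA1C, a further ubiquitous α-tubulin, had 126, 129 and 128 FPKM in NC and 115, 117 and 110 FPKM in siFSCN1. The groups did not overlap, and its CPM stood at 79.7% of NC (log2 fold change -0.33, SE 0.037, adjusted p = 3.1e-07, edgeR). This call ended when the trend of change with abundance over all genes was removed, at 0.0078 (adjusted p = 0.84, limma).

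TUBA4A, whose protein differs from the other α-tubulins at its end by lacking the encoded terminal tyrosine, showed the largest fall of the 10. It had 66.8, 68.3 and 67.0 FPKM in NC and 36.8, 33.6 and 33.3 FPKM in siFSCN1, with no overlap. Its log2 fold change was -1.13 (SE 0.040, adjusted p = 5.1e-14, edgeR), which placed its CPM at 45.7% of NC.

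TUBA1A, the α-tubulin of postmitotic neurons, had 25.5, 25.2 and 23.5 FPKM in NC and 29.2, 29.1 and 29.2 FPKM in siFSCN1. On the FPKM scale, which carries no composition factor, every siFSCN1 library was above every NC library. On the CPM scale after TMM scaling the groups overlapped, at 119 ± 6.17 and 125 ± 1.57 (SD, n = 3), and the log2 fold change of 0.07 did not pass the test (95% interval -0.021 to 0.16, adjusted p = 0.16, edgeR). In 6 of the alternatives it passed as higher at an adjusted p under 0.05, the largest at 0.29. The row in which its counts were summed with those of TUBA1B and TUBA1C was at -0.70.

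TUBB, the main β-tubulin of many dividing cells, had 376, 388 and 379 FPKM in NC and 306, 304 and 298 FPKM in siFSCN1. The groups did not overlap. Its log2 fold change was -0.50 (SE 0.036, adjusted p = 9.0e-10, edgeR), a CPM of 70.8% of NC.

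TUBB4B, a β-tubulin found in most tissues and in cilia, fell the most of the 6 β genes. It had 281, 301 and 287 FPKM in NC and 176, 165 and 154 FPKM in siFSCN1, again with no overlap. Its log2 fold change was -0.98 (SE 0.043, adjusted p = 8.8e-13, edgeR), a CPM of 50.7% of NC. Without NC replicate 1 or siFSCN1 replicate 1 it passed a 2-fold fall as TUBA4A did, with a log2 fold change of -1.03 in the latter case.

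TUBB6, a divergent β-tubulin, had 24.8, 27.5 and 25.5 FPKM in NC and 22.4, 22.4 and 21.3 FPKM in siFSCN1, and the groups did not overlap. Its log2 fold change was -0.40 (SE 0.046, adjusted p = 3.8e-07, edgeR). TUBB2A and TUBB2B, a pair of neighbouring β genes on chromosome 6, were scarce. TUBB2A had 7.91, 8.25 and 7.23 FPKM in NC and 5.94, 6.03 and 5.40 FPKM in siFSCN1, a log2 fold change of -0.59 (SE 0.065, adjusted p = 2.2e-07, edgeR). TUBB2B had 1.17, 1.29 and 1.07 FPKM in NC and 0.94, 0.94 and 0.98 FPKM in siFSCN1, a log2 fold change of -0.47 (SE 0.12, adjusted p = 0.0022, edgeR). Neither pair of groups overlapped, and since reads of the pair can be split between them, the values of each alone are uncertain.

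TUBB3, the β-tubulin used as a neuronal marker, had 25, 37 and 46 counts in NC and 60, 39 and 41 in siFSCN1. The groups overlapped, and the log2 fold change of 0.19 did not pass the test (95% interval -0.34 to 0.73, adjusted p = 0.51, edgeR). Another row of the locus held far more counts. A read-through row of chromosome 16, RP11-566K11.2, overlaps TUBB3 exons on the same strand, and 92.3% of TUBB3 windows occur in it or in TUBB2A or TUBB2B. This row had 76.9, 87.4 and 82.6 FPKM in NC and 45.8, 42.3 and 40.3 FPKM in siFSCN1, a log2 fold change of -1.11 (SE 0.048, adjusted p = 6.1e-13, edgeR). With its counts added to those of TUBB3, the summed row changed by -1.10 (adjusted p = 7.7e-13, edgeR), and 9 of the 10 members were lower. Which transcript of the locus gave these reads cannot be told apart in a table of genes.

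In NC the order of FPKM was TUBA1B, TUBB, TUBB4B, TUBA1C, TUBA4A, TUBB6, TUBA1A, TUBB2A, TUBB2B and TUBB3. The place of TUBB3 is that of its own row and is not settled, since the read-through row of its locus had 82.3 FPKM in NC. Of neighbours in this order, only TUBB6 and TUBA1A overlapped between libraries. In siFSCN1, TUBA1B at 310 ± 8.86 FPKM and TUBB at 303 ± 4.53 FPKM (SD, n = 3) overlapped, and TUBA1A at 29.2 FPKM stood above TUBB6 at 22.1 FPKM without overlap.

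**Figure D2:**
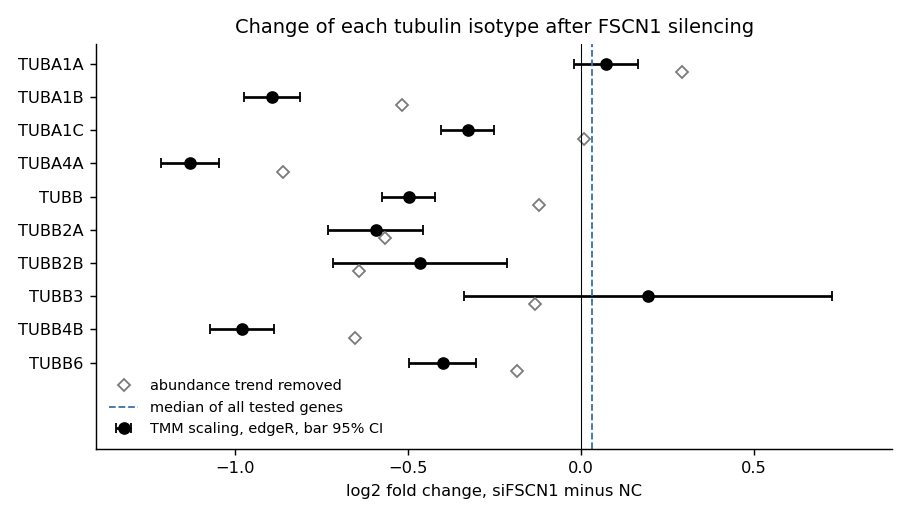
Log2 fold change (siFSCN1 minus NC) of each isotype with its 95% interval from edgeR after TMM scaling, and, as open diamonds, the value after the trend of change with abundance was removed. The dashed line is the median of all tested genes, 0.03, and 8 of 10 intervals lie wholly below 0.

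Abundant genes as a class were lower in siFSCN1. Among the 320 tested genes of at least 100 FPKM, 81.9% were lower at an adjusted p under 0.05 and the median log2 fold change was -0.41. Of the 4 isotypes of this level, TUBB4B and TUBA1B were near the low end, with 25 and 33 of the 320 genes at a lower value. TUBB and TUBA1C lay inside the bulk, with 121 and 190 genes at a lower value. With the trend of change with abundance removed (cyclic loess, then limma), 7 isotypes were lower and 1 was higher, against 32.9% and 32.7% of tested genes. On that scale TUBA4A was at -0.86, TUBB4B at -0.65, TUBB2B at -0.64, TUBB2A at -0.57 and TUBA1B at -0.52, while TUBB and TUBB6 were at -0.12 and -0.19. TUBA1C lost its call, and TUBA1A was higher at 0.29 (adjusted p = 8.0e-06, limma).

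**Figure D3:**
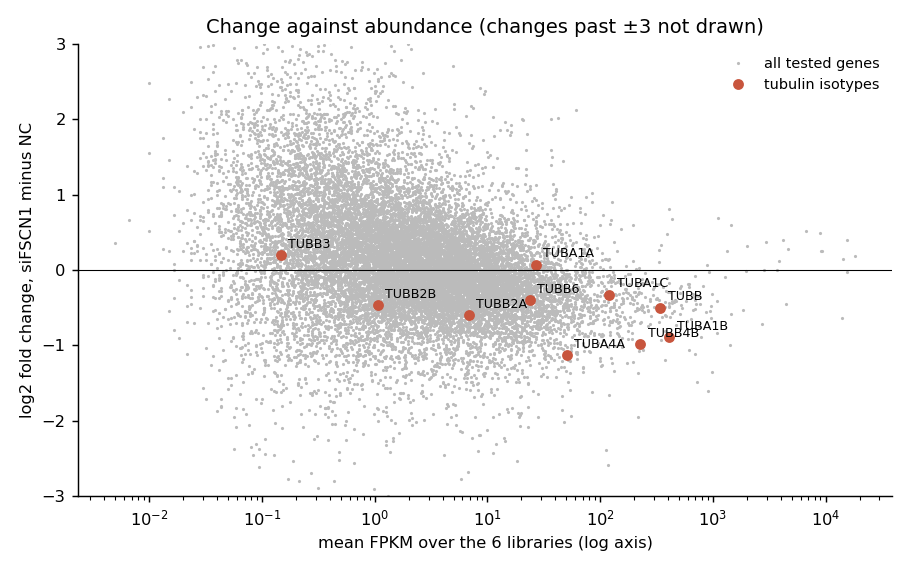
Log2 fold change (siFSCN1 minus NC) against mean FPKM over the 6 libraries (log axis) for all tested genes in grey and the 10 isotypes in red, with 77 genes past 3 in either direction not drawn. The grey cloud slopes down towards abundant genes, and TUBA4A, TUBB4B and TUBA1B lie in its lower part.

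The makeup of each class differed between the groups by more than the libraries of a group differed, though 3 against 3 libraries cannot pass an exact test at 0.05. The summed FPKM of the 4 α genes went from 732 ± 3.74 to 488 ± 13.4 (SD, n = 3), 66.6% of NC, and that of the 6 β genes from 706 ± 18.0 to 497 ± 16.1, 70.4% of NC. Summed α over summed β FPKM was 1.04 ± 0.024 in NC and 0.982 ± 0.012 in siFSCN1. The β sums and this ratio leave out the read-through row over TUBB3, at 82.3 FPKM in NC and 42.8 FPKM in siFSCN1. TUBA1B made up 70.0% ± 0.214 of α FPKM in NC and 63.6% ± 0.169 in siFSCN1, TUBA1C 17.4% ± 0.188 and 23.4% ± 0.183, TUBA4A 9.20% ± 0.089 and 7.09% ± 0.321, and TUBA1A 3.38% ± 0.132 and 5.98% ± 0.181. Among β genes, TUBB made up 54.0% ± 0.505 in NC and 61.0% ± 1.09 in siFSCN1, TUBB4B 41.0% ± 0.386 and 33.2% ± 1.11, and TUBB6 3.67% ± 0.105 and 4.44% ± 0.051. For 9 members the shares of the 2 groups did not overlap. A two-sided exact permutation test then gave p = 0.1, its lower limit for groups of 3 (adjusted p = 0.11). The shares of a class make up a fixed whole, so the 9 are not separate findings. They include TUBB3, at only 0.09 to 0.21 FPKM, and TUBB2B, with p = 0.2 by the exact permutation test on shares of counts. TUBB2A, at 1.10% and 1.16%, overlapped (exact permutation p = 0.3). With the read-through row added to TUBB3, TUBB3 made up 10.4% of β FPKM in NC and 7.95% in siFSCN1, TUBB 48.4% and 56.2%, and TUBB4B 36.8% and 30.6%.

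**Figure D4:**
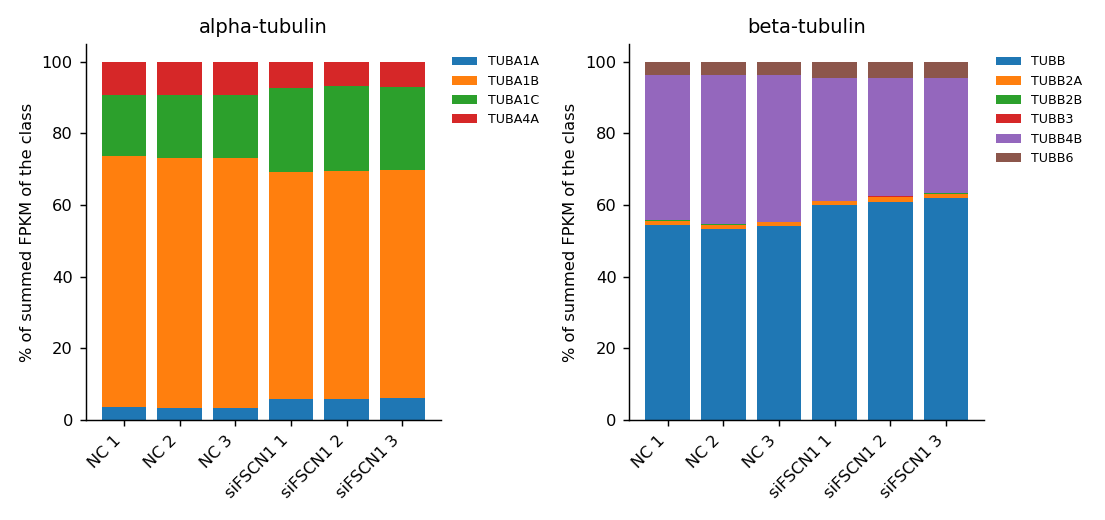
Share of the summed FPKM of its class held by each isotype in each library, α-tubulin on the left and β-tubulin on the right. TUBA1B and TUBB4B take smaller parts, and TUBA1C, TUBA1A and TUBB larger parts, in the 3 siFSCN1 libraries than in the 3 NC libraries.

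Neighbouring and overlapping rows bear on some members. TUBA1A, TUBA1B and TUBA1C lie within one stretch of chromosome 12 (GRCh38), TUBA1B at chr12:49127782-49131397 and TUBA1A at chr12:49184686-49189080 on the minus strand, and TUBA1C at chr12:49188736-49274600 on the plus strand. TUBA4A lies at chr2:219249710-219277902 (minus), TUBB at chr6:30717435-30725538 (plus), TUBB2A at chr6:3153497-3157544 and TUBB2B at chr6:3223324-3231730 (both minus), TUBB3 at chr16:89921392-89938761, TUBB4B at chr9:137241287-137243707 and TUBB6 at chr18:12307669-12344320 (all plus). The MANE Select transcript of each of the 10 has 4 exons. An RNA on the strand opposite to TUBA1A and TUBA1B (RP11-386G11.10, TUBA1B-AS1 in GENCODE v44) had 6117 to 6727 counts in NC and 3185 to 4371 in siFSCN1, a log2 fold change of -0.98. Opposite-strand rows that overlap an exon of TUBB (XXbac-BPG252P9.9, -0.85), TUBB4B (FAM166A, -1.05) and TUBA4A (TUBA4B, -0.82) were lower too, and STK16, opposite TUBA4A, was at -0.12 (adjusted p = 0.097, edgeR). The strand setting of the counting was not given in the sources used here, so reads of a gene and of its antisense partner cannot be told apart.

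The promoters of the 3 isotypes with the largest falls and of TUBA1A, which did not pass the test, are shown because TUBA1A and TUBA1B share their coding start but not their change. Each run holds 250 bases before and 50 after the RefSeq start (GRCh38.p14), 5′ to 3′ along the gene. Capitals mark matches to 4 motifs searched on both strands, where matches of a motif may overlap each other. The first is CCAAT, the second is the GC box GGGCGG, the third is the TATA box letters TATAAA, and the last is GAANNTTC as a short form of the heat shock element.
TUBA1A promoter (chr12:49189031-49189330, minus strand): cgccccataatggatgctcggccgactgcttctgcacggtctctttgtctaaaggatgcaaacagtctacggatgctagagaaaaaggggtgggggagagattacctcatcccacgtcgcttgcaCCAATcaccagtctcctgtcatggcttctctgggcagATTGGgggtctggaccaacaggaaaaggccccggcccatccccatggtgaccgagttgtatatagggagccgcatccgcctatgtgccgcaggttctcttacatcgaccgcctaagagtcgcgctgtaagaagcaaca
TUBA1B promoter (chr12:49131346-49131645, minus strand): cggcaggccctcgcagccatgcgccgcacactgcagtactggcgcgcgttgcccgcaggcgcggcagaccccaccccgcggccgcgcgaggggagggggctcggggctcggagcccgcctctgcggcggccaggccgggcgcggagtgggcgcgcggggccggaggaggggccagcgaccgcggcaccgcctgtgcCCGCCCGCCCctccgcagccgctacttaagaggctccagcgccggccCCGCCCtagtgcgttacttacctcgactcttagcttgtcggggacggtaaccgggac
TUBA4A promoter (chr2:219253869-219254168, minus strand): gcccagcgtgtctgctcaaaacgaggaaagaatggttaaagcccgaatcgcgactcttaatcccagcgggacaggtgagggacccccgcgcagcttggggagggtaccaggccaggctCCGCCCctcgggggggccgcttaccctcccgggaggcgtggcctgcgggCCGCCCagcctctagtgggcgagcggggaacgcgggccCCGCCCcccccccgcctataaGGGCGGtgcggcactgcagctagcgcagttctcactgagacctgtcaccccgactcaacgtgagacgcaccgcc
TUBB4B promoter (chr9:137241037-137241336, plus strand): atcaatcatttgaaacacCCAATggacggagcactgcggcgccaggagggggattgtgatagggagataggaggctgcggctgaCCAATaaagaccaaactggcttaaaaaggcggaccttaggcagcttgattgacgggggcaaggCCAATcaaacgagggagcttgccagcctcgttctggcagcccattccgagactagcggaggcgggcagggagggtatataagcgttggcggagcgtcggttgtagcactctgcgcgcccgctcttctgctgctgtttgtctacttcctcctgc
CCAAT had 2 matches in TUBA1A, 3 in TUBB4B and none in TUBA1B and TUBA4A, and occurred in 34.6% of all 35116 promoters of this length. GGGCGG had 3 matches in TUBA1B, 4 in TUBA4A and none in TUBA1A and TUBB4B, and occurred in 15786 of the 35116 promoters. TATAAA (11.5% of promoters) and GAANNTTC (6.77%) had no match in these 4. Only these exact strings were searched, so other forms of a TATA box or heat shock element are left unmarked. None of the 4 motifs occurred in all 3 promoters of the largest falls. Any part of the promoters in the changes was not tested.

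Whether genes that need CCT moved together was read from lists of related genes. The counts of each list stand beside 33.2% lower and 35.1% higher of all tested genes, and 81.9% lower of those of at least 100 FPKM. Of the 9 CCT genes tested, 8 were lower and 1 was higher, with a median log2 fold change of -0.92. CCT8 fell the most, by 1.29 on the log2 scale, CCT4 by 1.28, CCT7, the most abundant, by 1.24, TCP1 by 1.19, CCT3 by 0.92, CCT2 by 0.87, CCT6A by 0.68 and CCT5 by 0.53. CCT6B, a testis form at 0.193 FPKM in NC, was higher at 0.86. All 9 prefoldin and cochaperone genes were lower, with a median of -0.60. The CCT cochaperone PDCL3 was lowest at -1.61, and PFDN5, the most abundant, stood at -0.26. With the abundance trend removed, 8 CCT genes were lower and 1 higher. On that scale 8 prefoldin and cochaperone genes were lower, and PFDN5 was at 0.0091 (adjusted p = 0.85, limma).

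Of 21 CCT clients outside tubulin, 15 were lower and 2 higher, with a median of -0.52. The count was 14 or 15 under the alternatives, and that of CCT genes lower was 8 under each. The actins differed. ACTG1 had 1024 FPKM in NC and 411 FPKM in siFSCN1, a log2 fold change of -1.48 (SE 0.047, adjusted p = 1.3e-14, edgeR), while ACTB, at 877 and 964 FPKM, had -0.03 (SE 0.041, adjusted p = 0.53, edgeR). GNB5, a G-protein β subunit, fell the most, by 1.99, and CDC20, an activator of the anaphase-promoting complex, fell by 1.19. The transcription factor STAT3 and the ubiquitin ligase subunit VHL were higher, at 0.59 and 0.32. PPP2R2A, PPP2R2D and HDAC3 did not pass the test, at 0.08, -0.06 and -0.06. With the abundance trend removed, 14 clients were lower and 4 higher, since ACTB at 0.39 (adjusted p = 2.2e-09, limma) and PPP2R2A at 0.24 (adjusted p = 0.00012, limma) passed as well.

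Tubulin cofactors and related genes, which assemble the dimer or take it apart, had 6 lower and 1 higher of 7 tested, with a median of -0.25. TBCE fell by 0.77 and TBCB, the most abundant, by 0.55, and TBCEL, a relative of TBCE, was higher at 0.41. With the abundance trend removed, 4 cofactors were lower. Of 12 autoregulation genes, 9 were lower and 2 higher, with a median of -0.31, and with the trend removed 7 were lower and the median was -0.15. TTC5, the reader of the tubulin start, fell by 1.04 and CNOT1, the scaffold of CCR4-NOT, by 0.38, while CNOT6, a deadenylase, was higher at 0.23 and SCAPER, at 0.233 FPKM in NC, at 0.80.

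Among the other tubulin genes, 4 of 6 tested were lower and none higher. TUBG1, the γ-tubulin that nucleates microtubules, fell by 0.95, TUBAL3 by 1.00, TUBB4A by 0.36 and TUBG2 by 0.16, and TUBD1 and TUBE1, of centrioles, stood at 0.08 and 0.15 without passing. In the γ-tubulin ring complex, which also holds TUBG1 and TUBG2, 7 of 11 were lower and 3 higher, with a median of -0.16. TUBGCP6 was highest at 0.84. With the abundance trend removed, 5 of the complex were lower and 3 higher, with a median of -0.09. MZT2B, the most abundant of the complex, stood at -0.16 with both group means at 118 FPKM, a case where the scales part.

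Of 21 tested enzymes that modify tubulin, 8 were lower and 8 higher, with a median of 0.13, shares near those of all tested genes (33.2% and 35.1%). TTL, which adds the terminal tyrosine to α-tubulin, fell by 0.76 and TPGS2, of the polyglutamylase complex, by 0.35, while the deacetylase SIRT2 was higher at 0.28. At least 2-fold higher were 5 scarce enzymes, each under 1 FPKM in NC, namely TTLL3 (2.14), AGBL2 (1.59), AGBL3 (1.43), VASH2 (1.32) and TTLL1 (1.20), and none was 2-fold lower. Of all 17076 tested genes, 1991 were at least 2-fold higher and 829 at least 2-fold lower. Of 30 microtubule-binding proteins, 10 were lower and 8 higher, with a median of -0.05, again near the shares of all tested genes. MAP2, a dendritic microtubule protein, was highest at 2.44, from 0.283 to 1.73 FPKM, and MAP1B, the most abundant by CPM, fell by 0.31.

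**Figure D5:**
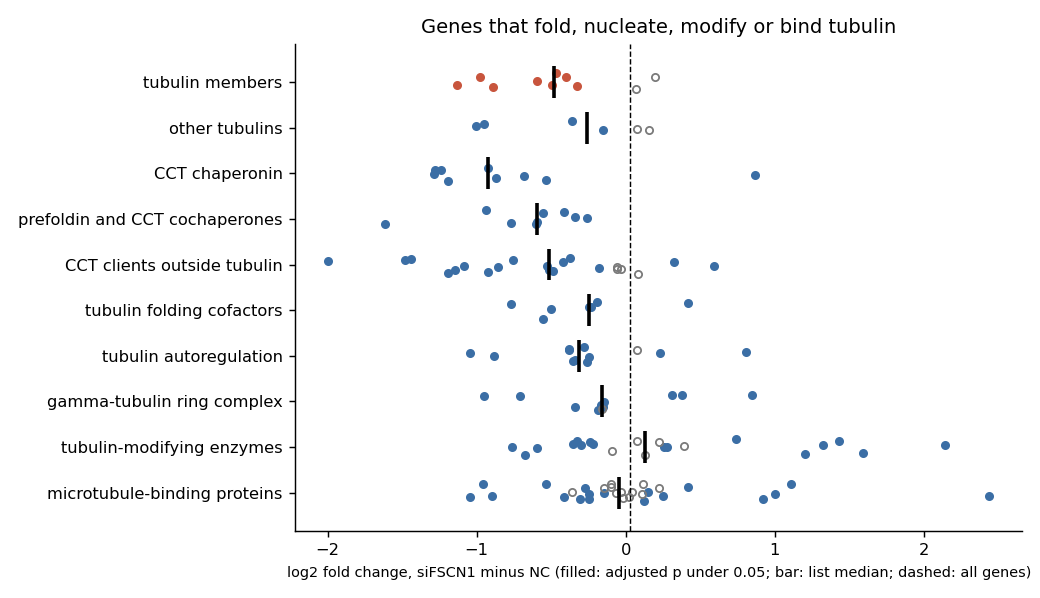
Log2 fold change (siFSCN1 minus NC) of each tested gene by list, filled where the adjusted p was under 0.05, with a bar at the list median and a dashed line at the median of all tested genes. The isotypes, CCT, its cochaperones and its other clients have medians between -0.92 and -0.48, while modifying enzymes and microtubule-binding proteins spread to both sides of 0.

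The genes whose log2 CPM was most like that of TUBA1B over the 6 libraries, among 5310 genes of at least 5 FPKM, were MRPL45, SHMT1, BFAR, PLK1 and ENO2. For TUBB they were KRT80, TMEM208, ENO2, RPL18AP3 and RBM12. Pearson's r was at or above 0.999 for each, but 885 and 832 of the genes had an r over 0.99, since the points share the difference between the 2 groups.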

How the data were processed

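Polyadenylated RNA of A549 cells was sequenced in 3 NC and 3 siFSCN1 libraries, grouped by sample title. Per the study's methods, the authors trimmed reads, aligned them to GRCh38 with HISAT2 (the submitters' processing notes list TopHat2) and counted uniquely mapped reads. The labels and the methods name different library kits, both stranded, and the counter and its strand setting were not given in the sources used here. The authors deposited raw counts per gene and FPKM, which divides by gene length and library depth and has no composition factor. At totals of 27967301 to 36560919 counts, precision was lowest for TUBB2B and for the TUBB3 row, which held far fewer counts than the read-through row of its locus.

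Counts were filtered with filterByExpr, scaled by TMM and tested with edgeR 4.0.16 (quasi-likelihood, R 4.3.3) without covariates, with Benjamini-Hochberg adjustment over 17076 genes. Here edgeR replaced the authors' DESeq2, which was an alternative. The test was tried on simulated data first. Shares of summed FPKM were compared by exact permutation (scipy 1.17.1). Of the 30230 identifiers, 99.7% were in GENCODE v44 without regard to version, and promoters came from RefSeq. TBCE had 2 rows, and the one with more counts was used. The members and gene lists were chosen with earlier results of these data known. Named were all members, FSCN1, every CCT gene, ACTB and ACTG1, and in each list the largest rise and fall (adjusted p under 0.05, mean of at least 10 CPM) and the most abundant gene. A gene that this rule names is not reported here. TUBAL3, TUBB4A, TUBG2, TUBD1, TUBE1, CCT clients CDC20, VHL, PPP2R2A, PPP2R2D and HDAC3, the 5 modifying enzymes at least 2-fold higher, and SCAPER were named after their values were seen, as were the promoter motifs.

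Alternatives were RLE, upper quartile and library-total scaling, DESeq2 1.42.0, a looser filter (at least 1 count in all), a stricter one (on average 10 counts, and 1 CPM in at least 3 libraries), a replicate block, each library left out in turn, limma 3.58.1 on log2(FPKM + 0.1) and log2(FPKM + 1), removal of the abundance trend, glmTreat, summed paralogs (TUBA1A with TUBA1B and TUBA1C, TUBB2A with TUBB2B) and, for shares, counts in place of FPKM or all TUBA and TUBB rows. Adding the read-through row to TUBB3, and counting members that were higher, were chosen after seeing the data.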

Additional observations from a re-analysis of the deposited data

How the results depend on the processing

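The count of members lower was 8 under every scaling, filter, limma fit on FPKM and left-out library, 7 with the abundance trend removed, 6 of 7 rows with paralogs summed and 9 with the read-through row added to TUBB3. TUBA1A passed as higher with upper quartile scaling (0.19), library totals (0.26), the stricter filter (0.10), limma on log2(FPKM + 0.1) (0.24), limma on log2(FPKM + 1) (0.23) and the trend removed (0.29), which makes the count of members higher 1 in each of these 6 settings. Upper quartile scaling and library totals moved the median of all genes to 0.15 and 0.22, limma on log2(FPKM + 0.1) to 0.17 and the looser filter to 0.13. Summing the paralogs gave -0.70 for the row that holds TUBA1A, TUBA1B and TUBA1C, in which TUBA1B has most counts. TUBA1C turned to 0.0078 and TUBB3 to -0.13 with the trend removed. TUBB3 ranged from -0.027 (without siFSCN1 replicate 1) to 0.30 over the left-out libraries, with -0.0010 without NC replicate 1, and was -1.10 with the read-through row added, where its share of β FPKM changed by -2.49 points. The count of members at least 2-fold lower was 0 with library totals, both limma fits on FPKM and the trend removed, 2 with the read-through row, and 1 to 2 over the left-out libraries (2 without NC replicate 1 or siFSCN1 replicate 1). Over all genes, 471 changed at least 2-fold with limma on log2(FPKM + 1) and 1155 with glmTreat. The cause of these changes was not tested. Same-numbered libraries did not deviate together (r of -0.035, 0.040 and -0.084), so the numbers give no pairing, and the replicate block, under which TUBA1B was at -0.89 and TUBA4A at -1.13, changed none of 18 results. TUBB3 is limited by the 25 to 60 counts of its own row, beside 4277 to 9795 counts per library in the read-through row.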
